A study of Mus musculus with 6 samples.

Results

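The genes described here are the subunits of the vacuolar H+-ATPase (V-ATPase), named by the prefix Atp6v, and the cathepsins, named Cts followed by letters or a number, with 1 further cathepsin gene left out by the rule. They came to 44 of the 31055 measured features, 22 of each kind. They were followed across gates, that is, sets of single sorted cells separated by marker levels in UMIs (unique molecular identifiers, each standing for 1 captured transcript) per 10000 UMIs of the cell. The alveolar type II (ATII) gate required Sftpc of at least 500, Hopx under 2 and Krt8 plus Krt18 under 50, and it was split at 100 UMIs of Lyz2 per 10000 into Lyz2-high and Lyz2-reduced cells. The alveolar type I (ATI) gate required Hopx of at least 15 with the same keratin limit, the keratin-high gate required Krt8 plus Krt18 of at least 50, and the myeloid gate required a UMI of both Ptprc and Tyrobp.

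Cells were sorted from lung tumours that had grown for 20 weeks in mice carrying the XTR allele of Lkb1, which a gene trap inactivates and FLPo recombinase restores. Tumours were started by lentiviral Cre given into the airway, so the tumours arose from lung cells that took up the virus. All 6 mice carried KrasLSL-G12D;Lkb1XTR/XTR;Rosa26LSL-tdTomato. The 3 Restored mice also carried FLPo-ERT2 and received 4 mg doses of tamoxifen for 2 weeks. Of the 3 NonRestored mice, 1 without FLPo-ERT2 received tamoxifen, 1 without it received vehicle, and 1 with FLPo-ERT2 received vehicle. Mice were 6 to 12 weeks old at the start of tumours, per the study's methods, and the sort excluded cells stained for CD45, F4/80, CD31 or Ter119.

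The pooled matrix of the 6 mice held 16017 cells and 266713311 UMIs, with 500 to 125731 UMIs per cell and a median of 13985. Of these, 2081 cells had under 500 genes and a further 1753 had over 20% mitochondrial UMIs, which left 12183. The ATII gate held 6975 of them (3429 Lyz2-high, 3546 Lyz2-reduced), the ATI gate 956, the keratin-high gate 1183 and the myeloid gate 73, while 3000 cells fell in no gate. Median depth ranged from 11797 UMIs per cell in the ATI gate to 25188 in the myeloid gate. Cells were not assigned to mice here, so restored and non-restored tumours were not compared, the matrix counts as 1 sample, and no difference between gates has a replicate check or a test. All 95% intervals cover counting error only and say nothing of variation between mice.

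The summed levels of ATII, ATI and macrophage markers that took no part in the gating, and of transitional-state markers, were highest in the gate of that name, although not every single gene was. The summed level of 8 ATII markers was 45791 counts per 1000000 UMIs (CPM) in the ATII gate and 10219 and 11460 CPM in the ATI and keratin-high gates. The summed level of 8 ATI markers was 10314 CPM in the ATI gate and 1734 CPM in the ATII gate, and that of 7 markers of the keratin-high transitional state was 7494 CPM in the keratin-high gate and 894 CPM in the ATII gate. All 10 macrophage markers were detected in the myeloid gate, at a summed 2819 CPM, against 12.2 to 23.2 CPM in the epithelial gates. The sort was set to exclude CD45-stained cells, so the 73 myeloid cells are no sample of the myeloid cells of the tumours. Transitional-state markers also summed to 4427 CPM in the myeloid gate, of which Lgals3 made 3638 CPM (1438 CPM in the keratin-high gate), and Cdkn1a was at 806 CPM in the ATI and 603 CPM in the keratin-high gate. The neutrophil markers of the myeloid gate summed to 85.5 CPM, its dendritic cell markers to 3.76 CPM, and its ATII markers to 3034 CPM. The 4 ciliated cell markers summed to 615 CPM in the ATI and 439 CPM in the keratin-high gate, against 51.7 CPM in the ATII gate, carried by Sec14l3 and Tppp3, while Foxj1 and Ccdc153 stayed at 1.80 CPM or less. The keratin-high gate also held 41.7 CPM of Mcpt8, from the list of 4 mast cell and basophil markers, and 27.3 CPM of Trbc2, from the list of 5 lymphocyte markers. The other markers of both lists had 0 to 4 UMIs there, and the leukocyte gene Laptm5 had 2. The part of these transcripts in the results below was not tested.

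The V-ATPase is a rotary proton pump. Its cytosolic V1 sector hydrolyses ATP and turns a ring of proton-carrying subunits in the membrane-bound V0 sector, which acidifies endosomes, lysosomes and secretory granules. Several subunits are encoded by more than 1 gene, and the copies differ between tissues. Cathepsins are proteases that mostly work in the acid lumen that the pump creates. In ATII cells the same route leads to the lamellar bodies, lysosome-related granules that store surfactant, and in macrophages it leads to the phagosome.

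Genes of this route can share the CLEAR element, a palindrome around TCACGTGA that is bound by the MiT/TFE transcription factors. RefSeq promoters (GRCm38.p6, 250 bases before to 50 after each start) were found for 35 of the 44 genes. The core TCACGTGA, which reads the same on both strands and contains the E-box CACGTG, occurred in 5 of those 35 genes (14.3%), against 1.12% of 27025 genes with a promoter. The E-box, with or without the rest of the core around it, occurred in 9 of 35 (25.7%), against 8.09%. The windows that hold the core are shown because it is the shared element of this route. Each is 30 bases, 5′ to 3′ on the strand of the gene, with the core in capitals.
Ctsa, first core: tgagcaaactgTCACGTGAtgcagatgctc
Ctsa, second core: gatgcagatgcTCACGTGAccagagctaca
Ctsd: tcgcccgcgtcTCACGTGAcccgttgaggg
Atp6v0d1: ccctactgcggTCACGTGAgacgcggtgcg
Atp6v1a: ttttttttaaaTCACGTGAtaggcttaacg
Atp6v0e: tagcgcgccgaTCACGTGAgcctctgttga

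In GRCm38.p6 these windows lie at chr2:164833749-164833778 and chr2:164833766-164833795 on the plus strand (Ctsa), chr7:142387908-142387937 on the minus strand (Ctsd), chr8:105566050-105566079 on the minus strand (Atp6v0d1), chr16:44139373-44139402 on the minus strand (Atp6v1a) and chr17:26676387-26676416 on the plus strand (Atp6v0e). Counted with the start as base 1, the cores began at bases -13 and 5 of Ctsa, -99 of Ctsd, -4 of Atp6v0d1, -132 of Atp6v1a and 3 of Atp6v0e. The core was not found in the windows of the other 30 genes, among them Atp6v1c2, Atp6v1g3 and Atp6v0a4, which are shown because the results below turn on them. Their 150 bases before the start also held no TTGCNNAA (letters of a C/EBP site) and no CACTTGA (an NKX2-1 site) on either strand, so no base is capitalized.
Atp6v1c2: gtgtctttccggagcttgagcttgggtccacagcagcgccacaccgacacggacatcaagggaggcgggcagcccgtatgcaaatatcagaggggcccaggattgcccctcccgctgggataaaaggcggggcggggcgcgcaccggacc
Atp6v1g3: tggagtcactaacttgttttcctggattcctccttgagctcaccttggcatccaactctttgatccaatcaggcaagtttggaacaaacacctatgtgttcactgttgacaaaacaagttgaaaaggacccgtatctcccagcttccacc
Atp6v0a4: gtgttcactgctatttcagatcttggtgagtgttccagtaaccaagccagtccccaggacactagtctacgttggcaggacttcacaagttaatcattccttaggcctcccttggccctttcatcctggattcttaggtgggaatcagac

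These stretches lie at chr12:17324731-17324880 on the minus strand, chr1:138273588-138273737 on the plus strand and chr6:38124587-38124736 on the minus strand. The starts used for Atp6v1c2, Atp6v0e, Ctsa, Ctsd and Atp6v1a lie inside the gene as GENCODE annotates it, so their upstream starts are not shown. The C/EBP letters occurred in 4 of the 35 genes (11.4%, against 12.2% of all genes) and the NKX2-1 letters in 1 (2.86%, against 3.60%). A match is a run of letters and not a measured binding site, and a missing match says only that the letters are not in these windows.

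The expressed members were fewer among the cathepsins than among the V-ATPase genes. At least 20 CPM in the ATII, ATI, keratin-high or myeloid gate was reached by 17 of 22 V-ATPase genes and 11 of 22 cathepsin genes, and these 28 are named with values below, beside a lower gene where it differed. Of the 5 remaining V-ATPase genes, Atp6v1b1 had 1 UMI and Atp6v1e2 2 UMIs in all passing cells, while Atp6v0e2 (894 UMIs), Atp6v0c (473) and Atp6v1g2 (453) stayed at 7.24 CPM or less in every gate. The count of Atp6v0c, the proton-carrying ring subunit, is uncertain, because 29.6% of the 90-base windows in the last 500 bases of its transcripts also occur in the pseudogenes Atp6v0c-ps1 and Atp6v0c-ps2. Among the cathepsins, Ctsll3, Ctsq, Ctsr, Cts6, Cts7, Ctsm and Cts3 had no UMI in any passing cell, and Ctsj and Cts8 had 1 each. These belong mostly to a cluster known from the mouse placenta. Ctsg, the serine protease of neutrophil granules, had 3 UMIs and Ctsw, a cathepsin of cytotoxic lymphocytes, 75.

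In the ATII gate the most abundant V-ATPase gene was Atp6v1g1, a subunit of the stalk that holds the motor in place, at 801 CPM. It was followed by Atp6v0b (276 CPM), a further ring subunit, Atp6v1f (206 CPM), a subunit of the central rotor, and Atp6v0e (200.5 CPM), a small membrane subunit. The lowest of the V-ATPase genes at 20 CPM or more were Atp6v0a2 (24.8 CPM), Atp6v1c1 (26.3 CPM) and Atp6v1g3 (32.7 CPM). Of the 22 cathepsin genes kept by the rule, the highest was Ctsc, the dipeptidyl peptidase that activates granule proteases, at 849 CPM (95% interval 845 to 854). The broad cysteine protease Ctsb followed at 339 CPM, then the aspartic protease Ctsd at 206 CPM, Ctsz at 116 CPM and Ctsl at 112 CPM. In this 3′ assay a transcript gives 1 UMI whatever its length, so these levels were not divided by length.

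**Figure D1:**
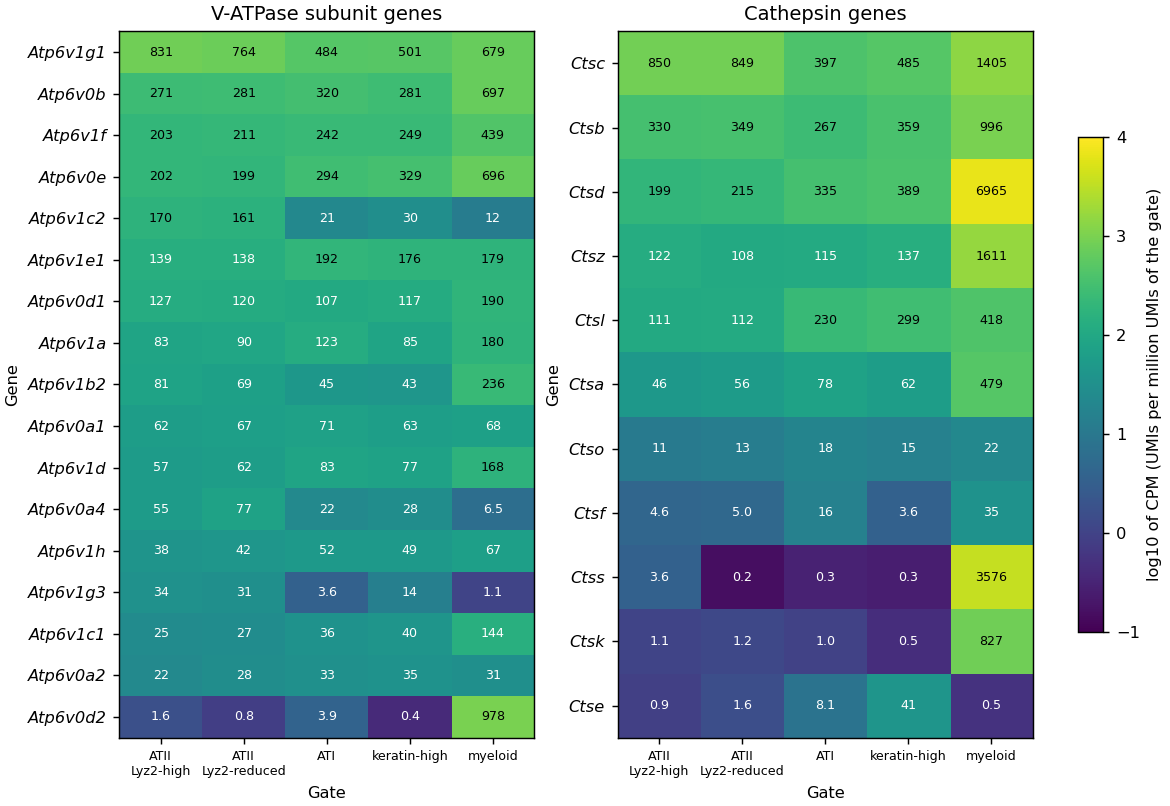
Level of each of the 28 genes that reached 20 CPM in a gate, with the gates in columns, genes in rows ordered by their level in Lyz2-high ATII cells, the CPM printed in each cell and colour giving its log10. Most V-ATPase genes keep their colour across the 4 epithelial columns, whereas Atp6v1c2 drops from 170 and 161 CPM to 21.3 and 30.0 CPM, and the myeloid column stands apart for Ctsd, Ctss, Ctsz, Ctsk and Atp6v0d2.

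The first comparison asked whether lysosomal genes of the ATII gate go along with Lyz2, the lysozyme gene that the split used. No tested member differed by 1.5-fold, which is close to what all genes showed. A call required a ratio of at least 1.5-fold among genes with a mean of at least 5 CPM over both gates. Of the 16 V-ATPase genes tested in this way 0 were higher and 0 lower in Lyz2-reduced than in Lyz2-high cells, and of the 7 cathepsin genes tested 0 were higher and 0 lower. The background over all 9152 genes tested was 4.44% higher and 0.972% lower. The median log2 ratio was 0.05 for the V-ATPase genes and 0.08 for the cathepsins, beside 0.20 for all genes, and relative to that median gene again 0 members were called, against 2.09% of all genes higher and 1.78% lower. Below the 5 CPM minimum, Atp6v0e2 was at 1.31 CPM in Lyz2-high and 2.51 CPM in Lyz2-reduced cells, Ctse at 0.87 and 1.62 CPM, and Atp6v0d2 at 1.63 and 0.83 CPM. Without the cells that were also in the myeloid gate, Atp6v0d2 was at 0.73 CPM in Lyz2-high and 0.83 CPM in Lyz2-reduced cells (interval of the ratio 0.79 to 1.65).

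Within the 1.5-fold limits single genes still differed beyond counting error. Atp6v0a4, an isoform of the large membrane subunit known from kidney and inner ear, was at 55.4 CPM in Lyz2-high and 77.1 CPM in Lyz2-reduced cells, a ratio of 1.39 (95% interval 1.34 to 1.45). Over 5 bins of Lyz2 in the ATII gate its level went from 80.3 CPM in the 1547 cells with under 20 UMIs of Lyz2 per 10000 through 78.4, 72.6 and 61.6 CPM to 49.1 CPM in the 1600 cells with at least 200. Ctsa, a carboxypeptidase that also stabilizes lysosomal glycosidases, went the same way, from 61.1 to 43.6 CPM. Atp6v1b2, the B subunit of the catalytic head, went the other way, from 62.1 to 82.3 CPM. Relative to the median gene, the log2 ratio of Lyz2-reduced to Lyz2-high cells was 0.28 for Atp6v0a4, 0.09 for Ctsa and -0.42 for Atp6v1b2. The 5 fibroblast markers summed to 11.9 CPM in the Lyz2-high and 53.8 CPM in the Lyz2-reduced cells, and their part in these differences was not tested. Ctsc was at 849.9 and 849 CPM in Lyz2-high and Lyz2-reduced cells and Ctsl at 111 and 112 CPM.

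Of the cathepsins, Ctss and Ctsz were higher in the Lyz2-high cells, by very different amounts. Ctsz, a carboxypeptidase, was at 122 CPM in Lyz2-high and 108 CPM in Lyz2-reduced cells, with 112, 102, 107, 118 and 126 CPM over the 5 bins of Lyz2. Ctss, an endosomal protease of antigen-presenting cells, was at 3.62 CPM in the Lyz2-high and 0.15 CPM in the Lyz2-reduced cells. However, 4 cells of the ATII gate, all of them Lyz2-high, were also in the myeloid gate. They had 15374 to 74839 UMIs each and held 306 of the 331 Ctss UMIs of the ATII gate (92.4%), 45 of its 47 UMIs of the macrophage gene Marco, 80 of its 205 Atp6v0d2 UMIs (39.0%) and 48 of its 183 Ctsk UMIs (26.2%). Without cells holding a Ptprc or Tyrobp UMI, Ctss was at 0.16 CPM in the Lyz2-high and 0.15 CPM in the Lyz2-reduced cells.

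The second comparison asked how the genes differ between ATI and ATII cells. The V-ATPase genes past the 5 CPM minimum were lower or within 1.5-fold, whereas several cathepsins were higher. Of 16 V-ATPase genes tested 0 were higher and 5 were lower (Atp6v1c2, Atp6v1g3, Atp6v0a4, Atp6v1b2 and Atp6v1g1). The 0 became 3 when cells were thinned to 5000 UMIs (Atp6v0a2, Atp6v0e and Atp6v1d) and 1 when every cell weighed the same (Atp6v0e). Of 8 cathepsin genes tested 5 were higher (Ctsf, Ctsl, Ctsd, Ctsa and Ctso) and 1 was lower (Ctsc). The background over 9404 genes was 30.3% higher and 8.75% lower. The median gene stood 0.36 higher on the log2 scale in the ATI gate. Relative to it the same 5 V-ATPase genes were lower with 0 higher, while the cathepsins had 2 higher (Ctsf and Ctsl) and 2 lower (Ctsc and Ctsb), against 12.2% higher and 15.6% lower over all genes. The median log2 ratio was 0.22 for the V-ATPase genes and 0.60 for the cathepsins. A member at 4 CPM or less in 1 gate can pass the minimum only if it differs by 1.5-fold, and Atp6v1g3 was called in this way, which leaves 0 higher and 4 lower of 15 V-ATPase genes. Below the minimum, Atp6v0e2 was at 6.22 CPM in the ATI and 1.86 CPM in the ATII gate, 3.35-fold higher (95% interval 2.59 to 4.28), Atp6v0d2 at 3.90 and 1.27 CPM, 3.07-fold higher (2.22 to 4.18), or 5.03-fold (3.57 to 7.01) without the 4 ATII cells that were also in the myeloid gate, and Ctse at 8.09 and 1.21 CPM, 6.67-fold higher (5.22 to 8.48).

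The 5 lower genes were not of 1 sector. Atp6v1c2, an isoform of the C subunit, which clamps V1 to V0, known from lung and kidney, was at 166 CPM in the ATII and 21.3 CPM in the ATI gate, 7.79-fold lower (95% interval 6.93 to 8.78). Atp6v1g3, a stalk isoform known from kidney, was at 32.7 and 3.60 CPM, 9.08-fold lower (6.84 to 12.3). Atp6v0a4 was at 65.2 and 22.5 CPM, 2.90-fold lower (2.59 to 3.27). Atp6v1b2 (75.7 and 44.7 CPM) and Atp6v1g1 (801 and 484 CPM) are the broadly expressed B and G genes, and they were 1.69-fold (1.56 to 1.84) and 1.65-fold (1.61 to 1.70) lower. The other 11 tested V-ATPase genes lay between a log2 ratio of -0.22 for Atp6v0d1 and 0.55 for Atp6v0e.

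Among the cathepsins, Ctsl, a cysteine protease of the late endosome, was at 112 CPM in the ATII and 230 CPM in the ATI gate, 2.07-fold higher (1.99 to 2.15). Ctsf was at 4.75 and 15.5 CPM, 3.27-fold higher (2.79 to 3.81), and it met the 5 CPM minimum only through the ATI gate. Ctsd was at 206 and 335 CPM, 1.63-fold higher (1.58 to 1.68). Ctsa, at 50.4 and 77.6 CPM, and Ctso, at 18.0 CPM in the ATI gate, passed 1.5-fold narrowly, and the intervals of both ratios reached below it, to 1.44 and 1.31. Of these 5, Ctsl and Ctsf were past 1.5-fold relative to the median gene. Ctsc was at 849 and 397 CPM, 2.14-fold lower (2.08 to 2.20), and Ctsb at 339 and 267 CPM.

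**Figure D2:**
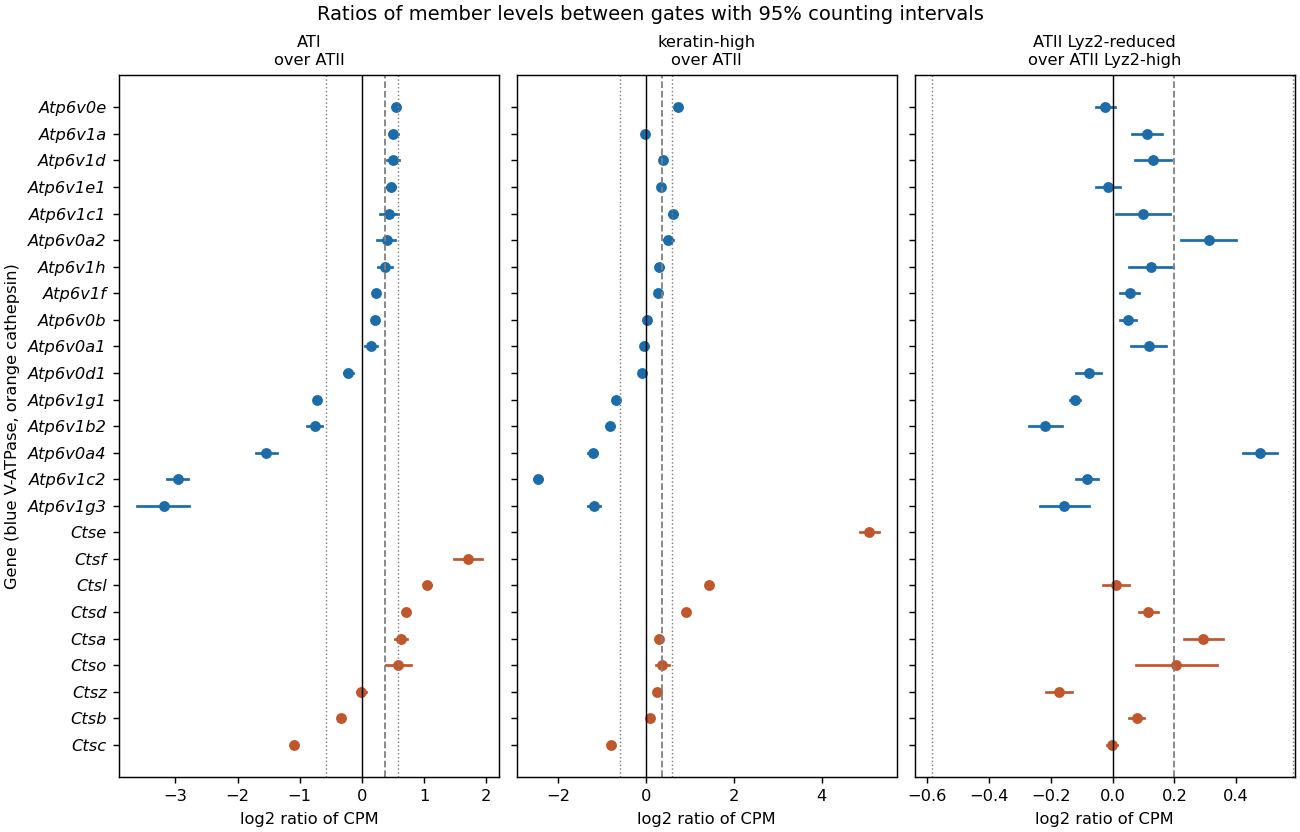
Ratio of CPM between gates on a log2 axis for each V-ATPase gene (blue) and cathepsin gene (orange) that was tested, with 95% counting intervals as bars, dotted lines at 1.5-fold and a dashed line at the median of all genes tested. In the ATI and keratin-high panels Atp6v1c2, Atp6v1g3, Atp6v0a4, Atp6v1b2 and Atp6v1g1 lie left of the lower limit, while in the Lyz2 panel, which has a narrower axis, 0 genes reach a limit.

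The third comparison took the keratin-high cells against the ATII gate. The same 5 V-ATPase genes were lower, and Ctsl, Ctsd and the aspartic protease gene Ctse were higher. Of 16 V-ATPase genes 2 were higher (Atp6v0e and Atp6v1c1) and 5 lower, and of 8 cathepsin genes 3 were higher (Ctse, Ctsl and Ctsd) and 1 lower (Ctsc), against a background of 33.3% higher and 8.53% lower over 9489 genes. With the median gene 0.37 higher on the log2 scale, the relative counts were 0 higher and 5 lower for the V-ATPase and 2 higher (Ctse and Ctsl) and 1 lower for the cathepsins, against 15.1% and 15.6%. The median log2 ratio was 0.0013 for the V-ATPase genes and 0.33 for the cathepsins. Ctse, at 1.21 CPM in the ATII gate, had to be called once it passed the minimum, and without it 2 of 7 cathepsins were higher and 1 lower, with a median of 0.29. Below the minimum, Atp6v0e2 was at 7.24 CPM in the keratin-high gate, 3.90-fold above the ATII gate (3.26 to 4.65). Atp6v0d2 was at 0.39 CPM there, 3.24-fold below the ATII gate (1.82 to 6.38). Without the ATII cells that were also in the myeloid gate its ratio was 0.51 (0.25 to 0.91). Atp6v0c was at 1.21 CPM in the keratin-high and 2.04 CPM in the ATII gate, and Ctsw had 41 and 9 UMIs.

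Atp6v1c2 was at 30.0 CPM in the keratin-high gate, 5.52-fold lower than in the ATII gate (5.17 to 5.90), and Atp6v0a4 at 28.1 CPM, 2.32-fold lower (2.16 to 2.49). Atp6v1g3 was at 14.3 CPM, 2.28-fold lower (2.07 to 2.52). That is 3.99-fold above its ATI level (2.96 to 5.49). Atp6v0e reached 329 CPM, 1.64-fold higher (1.61 to 1.68), and Atp6v1c1, the broad C isoform, 40.4 CPM, 1.54-fold higher (1.44 to 1.64). Atp6v1a, the catalytic A subunit, was at 84.9 CPM, close to the 86.4 CPM of the ATII gate and below the 123 CPM of the ATI gate.

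Ctsl was at 299 CPM in the keratin-high gate, 2.69-fold above the ATII gate (2.62 to 2.75) and above the 230 CPM of the ATI gate (interval of the ratio 1.25 to 1.35). Ctsd was at 389 CPM, 1.89-fold above the ATII gate (1.85 to 1.93). Ctsc was at 485 CPM, 1.75-fold lower (1.72 to 1.78). Ctsf, which was higher in ATI cells, was at 3.62 CPM here, 4.29-fold below the ATI level (3.39 to 5.45). It was at 2.91 CPM in keratin-high cells with Hopx under 15 and 13.1 CPM (8.71 to 18.9) in those with Hopx of at least 15. Ctsl and Ctsd were thus called in both gates, and of these Ctsl was also past 1.5-fold relative to the median gene, which Ctsd was not in either gate (log2 0.34 and 0.55).

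Ctse, an endosomal protease of stomach, lymphoid and other epithelial tissues, was at 1.21 CPM in the ATII, 8.09 CPM in the ATI and 41.3 CPM in the keratin-high gate. The ratio of the keratin-high to the ATII gate was 34.0 (29.2 to 39.7). It reached the 5 CPM minimum only through the keratin-high gate, and few cells carried it. Of 1183 keratin-high cells 213 had a UMI, 24 cells held 50% of the 1266 UMIs, and a single cell had up to 92. In the ATI gate 2 cells held 50% of the 108 Ctse UMIs. By contrast 1054 keratin-high cells had a Ctsl UMI, and 148 cells were needed to hold 50% of them. Keratin-high cells with Hopx under 15 (1056 cells) had 44.3 CPM of Ctse, and the 127 with Hopx of at least 15 had 2 UMIs (0.94 CPM, 95% interval 0.11 to 3.38). In the same order Atp6v1g3 was at 15.2 and 3.28 CPM, Atp6v1c2 at 31.5 and 9.83 CPM and Ctsc at 502 and 263 CPM. Ctsd (390 and 377 CPM) and Atp6v1g1 (501 and 496 CPM) were close in both. The mice from which these cells came were not analysed here.

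Shares of cells with a UMI were compared at equal depth for 3 members. Each cell was thinned to 5000 UMIs, which kept 6772 ATII, 841 ATI, 1090 keratin-high and 70 myeloid cells. An Atp6v1c2 UMI was then found in 54.9% of ATII cells (exact binomial 95% interval 53.8 to 56.1), 7.25% of ATI cells (5.59 to 9.22), 11.6% of keratin-high cells (9.72 to 13.6) and 5.71% of myeloid cells (1.58 to 14.0). Without thinning these shares were 88.7%, 16.1%, 35.7% and 11.0%. A Ctsl UMI was found in 39.3% of ATII, 62.1% of ATI and 62.9% of keratin-high cells. A Ctse UMI was found in 0.399%, 1.19% and 7.89%, and in 1.43% of the myeloid cells. Free RNA in the droplets can give a UMI to a cell that does not express the gene. The myeloid share is a poor measure of that background, because the 4 myeloid cells at or over the Sftpc limit of the ATII gate are among them, and without these 2 of 66 thinned myeloid cells had an Atp6v1c2 UMI (3.03%, 0.37 to 10.5). How much of the ATI share is background was not tested.

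The transcript shares of the pump's isoform genes differed between gates, while the proteins were not measured here. Of the UMIs of the C subunit genes, Atp6v1c2 took 86.3% in the ATII, 37.5% in the ATI, 42.7% in the keratin-high and 7.90% in the myeloid gate, and Atp6v1c1 took the rest. Without the 4 myeloid cells at or over the Sftpc limit of the ATII gate, the myeloid share of Atp6v1c2 was 2.37% (6 of 253 UMIs, 95% interval 0.88 to 5.09). For the large membrane subunit a, Atp6v0a4 took 38.7% in the ATII and 15.2% in the ATI gate, with Atp6v0a1 at 38.1% and 48.4%. In the myeloid gate 52.5% of subunit a UMIs came from Tcirg1, the a3 isoform of osteoclasts and lysosomes, which the name rule does not take in. Subunit d was almost all Atp6v0d1 in the epithelial gates (96.5% to 99.7%), whereas Atp6v0d2, the isoform of osteoclasts and macrophages, took 83.7% in the myeloid gate. Shares between genes also depend on how well each 3′ end is captured, so the change of a share across gates is what these values show.

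**Figure D3:**
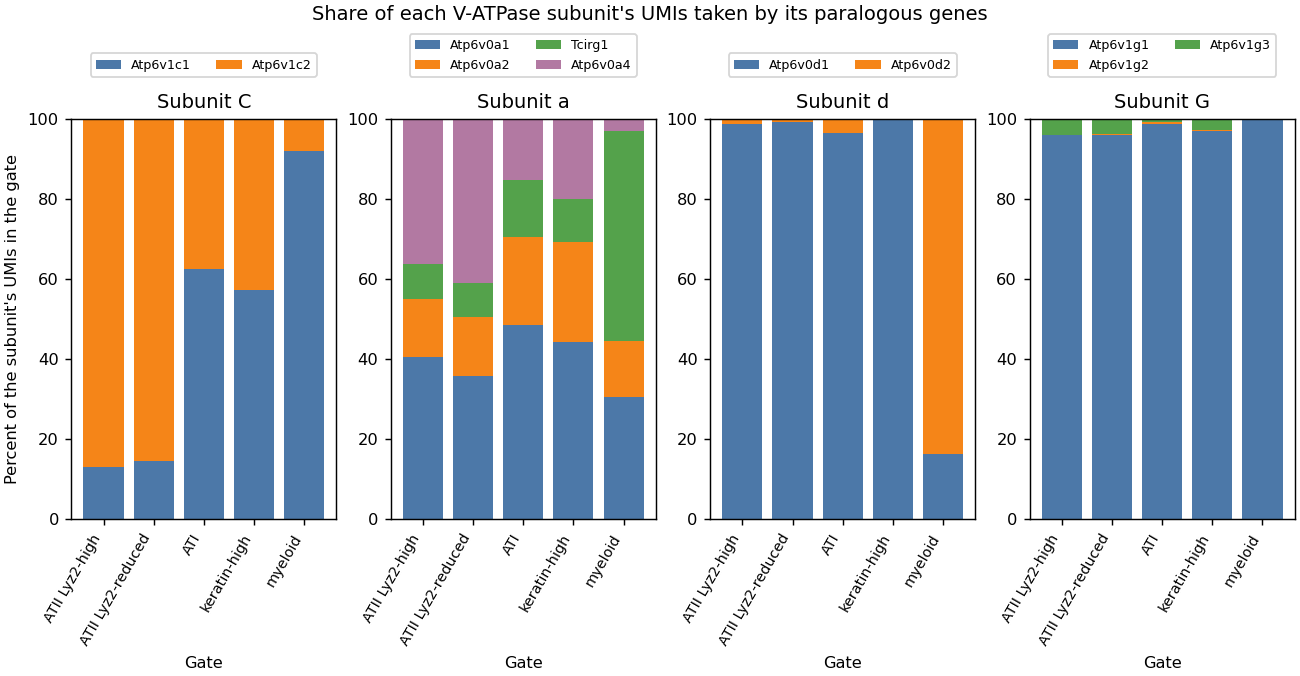
Stacked bars give the percent of a subunit's UMIs that came from each of its genes in 5 gates, for subunits C, a, d and G of the V-ATPase. Atp6v1c2 leads subunit C in both ATII columns only, and in the myeloid bar the share of Atp6v0d2 reaches 83.7% of subunit d and that of Tcirg1 52.5% of subunit a.

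The lower levels outside the ATII gate can be set beside those of ATII marker genes. As a percent of the ATII level, the ATI and keratin-high gates kept 14.7% and 16.7% of Sftpa1, 13.5% and 6.97% of Slc34a2 and 11.2% and 15.2% of Lamp3, a lamellar body membrane protein. They kept 12.8% and 18.1% of Atp6v1c2, 11.0% and 43.9% of Atp6v1g3, 34.5% and 43.1% of Atp6v0a4, and 46.8% and 57.1% of Ctsc. Over all 8 ATII markers the range was wide, from 9.06% for Cxcl15 to 67.3% for Napsa in the ATI gate and from 5.50% for Cxcl15 to 53.3% for Sftpb in the keratin-high gate.

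The ATI and keratin-high gates took cells at any Sftpc, and the ATII gate had only a lower limit. All passing cells outside the myeloid gate, gated or not, were therefore placed in 6 bins of Sftpc. Levels were computed over UMIs without surfactant, Lyz2 and mitochondrial genes. A bin can mix cells of several gates. In the bins from 50 to 200 and from 200 to 500, Ager was at 2863 and 2816 and Krt8 at 2897 and 2241 per 1000000 UMIs. These bins hold 1805, 870, 911, 1759, 5749 and 1016 cells from the lowest (under 50 UMIs per 10000) to the highest (at least 2000). Atp6v1c2 was at 19.5, 36.0, 60.6, 136, 211 and 221 per 1000000 UMIs. Atp6v1g1 was at 472, 507, 551, 712, 1045 and 1302 per 1000000 UMIs, and Atp6v1b2 went from 46.2 to 122. Atp6v0a4 differed in shape, at 15.5, 51.4, 65.0, 80.2, 85.5 and 83.2 per 1000000 UMIs, with its largest step between the lowest bins. Ctsc was higher in each bin than in the one before, from 339 to 1214 per 1000000 UMIs. Conversely, Ctsl was at 400 in the lowest bin, 144 in the fourth and 177 in the highest, Ctsd went from 454 to 264, and Ctse from 44.8 to 0.77. Atp6v1c1 and Atp6v1h stayed within 34.6 to 42.5 and 49.9 to 58.1 per 1000000 UMIs. From the lowest to the highest bin Atp6v0b went from 290 to 427, Atp6v0d1 from 108 to 184 and Atp6v1g3 from 8.31 to 39.4. Atp6v0a1 went from 58.8 to 84.0, Atp6v1a from 94.1 to 131, Atp6v1e1 from 175 to 213 and Atp6v1f from 263 to 296. Lower at the end were Atp6v0e (332 to 312), Atp6v1d (88.3 to 86.2) and Atp6v0a2 (36.6 to 28.7).

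**Figure D4:**
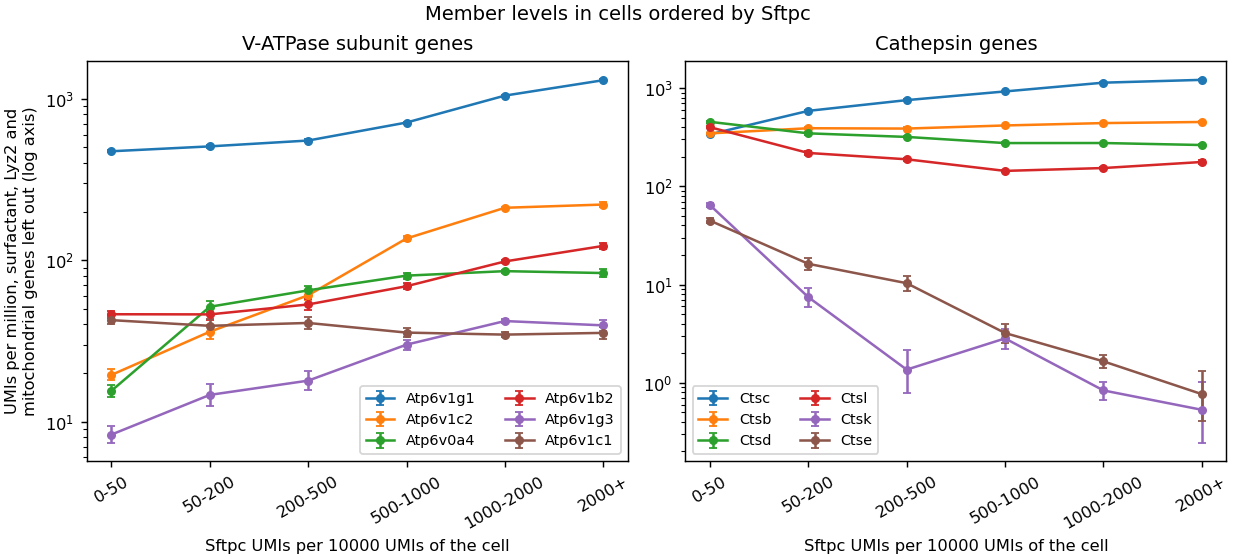
UMIs per 1000000 UMIs (log axis), with surfactant, Lyz2 and mitochondrial genes left out of the total, of 6 V-ATPase genes and 6 cathepsin genes in 6 bins of Sftpc, with 95% counting intervals. Atp6v1c2 climbs from 19.5 to 221 per 1000000 UMIs and Ctsc from 339 to 1214 per 1000000 UMIs, while Ctsl, Ctse and Ctsk are highest in the bin of lowest Sftpc.

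The Ctsk of the lowest bin (64.4 per 1000000 UMIs) did not sit in epithelial gates. Ctsk, the collagen-degrading protease of osteoclasts, was at 0.46 to 1.13 CPM in the ATII, ATI and keratin-high gates. Among the 3000 ungated cells, the 220 with UMIs of Col1a1, Col1a2 and Col3a1 held 92.4% of the Ctsk UMIs, at 533 CPM (510.1 to 556), against 3.65 CPM in the other 2780. These collagen-positive cells also had Ctsl at 773 CPM and Ctsf at 86.2 CPM, and 0 UMIs of Atp6v0d2, which allows up to 0.78 CPM. They remain in the lowest Sftpc bin, where they add to Ctsl and Ctsk. Cells were grouped by these collagens after their Ctsk level had been seen.

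The fourth comparison took the myeloid gate against the ATII gate. It had the widest differences: the 10 tested cathepsins were higher, while of the V-ATPase genes 10 were higher, 3 lower and 4 within 1.5-fold. The 3 lower of the 17 V-ATPase genes tested were Atp6v1c2, Atp6v1g3 and Atp6v0a4, and the 4 within 1.5-fold were Atp6v1g1, Atp6v0a2, Atp6v0a1 and Atp6v1e1. These counts stood against a background of 31.7% higher and 26.5% lower over 9671 genes. The median log2 ratio was 0.75 for the V-ATPase genes and 3.08 for the cathepsins, beside 0.12 for all genes. Relative to that median gene the counts were 9 higher and 3 lower for the V-ATPase and 10 higher for the cathepsins, against 28.1% and 29.5%.

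Ctss, Ctsk and Atp6v0d2 (through the myeloid gate) and Atp6v1g3 (through the ATII gate, with 1.08 CPM in the myeloid gate) had to be called once they passed the 5 CPM minimum. Without these 4 genes 8 of 8 cathepsins were higher, with a median log2 ratio of 2.40, and 9 of 15 V-ATPase genes were higher and 2 lower. The direction of Ctso rests on 41 myeloid UMIs, and after thinning to 5000 UMIs its log2 ratio went from 0.88 to -0.51. Ctsd was the most abundant member in any gate, at 6965 CPM in the myeloid gate, 33.8-fold above the ATII gate (33.1 to 34.5). Ctss was at 3576 CPM against 2.05 CPM, Ctsz at 1611 against 116 CPM and Ctsk at 827 against 1.13 CPM. The 4 cells in both gates carried most of the Ctss of the ATII gate, and without cells of the myeloid gate the ATII levels were 0.15 CPM for Ctss and 0.84 CPM for Ctsk. Ctsa was at 479 against 50.4 CPM, 9.52-fold higher (8.87 to 10.2), Ctsl 3.75-fold (3.48 to 4.02) and Ctsb 2.94-fold higher (2.81 to 3.08). Ctsc, the highest in the ATII gate of the cathepsins kept by the rule, was at 1405 CPM and 1.65-fold higher (1.59 to 1.72).

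Of the V-ATPase genes, Atp6v0d2 was at 978 CPM (934 to 1024) in the myeloid gate and at 0.39 to 3.90 CPM in the epithelial gates, the ATI gate having the highest of these. It was followed by Atp6v1c1 (144 CPM, 5.48-fold higher), Atp6v0e (696 CPM, 3.47-fold) and Atp6v1b2 (236 CPM, 3.12-fold). Atp6v1c2, at 12.4 CPM, was 13.4-fold lower than in the ATII gate (8.93 to 21.2), and Atp6v0a4, at 6.45 CPM, 10.1-fold lower (5.79 to 19.6). Without the myeloid cells at or over the Sftpc limit of the ATII gate, which left 69 of 73, the myeloid levels of these 2 genes were 3.48 and 2.90 CPM.

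Single myeloid cells varied in these genes. Ctss ranged from 9.89 to 85.4 UMIs per 10000 with a median of 35.7, and all 73 cells had at least 1 UMI. Ctsd ranged from 0 to 229 with a median of 63.7 and was found in 72 cells, Atp6v0d2 from 0 to 24.5 with a median of 8.55 in 67 cells, and Ctsk from 0 to 42.5 with a median of 5.59 in 66 cells. Marco, a scavenger receptor of alveolar macrophages, was detected in 49 of the 73 cells and the complement gene C1qa, typical of interstitial macrophages, in 5. In the 5 cells with a C1qa UMI, Atp6v0d2 and Ctsk had 0 UMIs, which allows up to 42.9 CPM, and Ctsd was at 915 CPM (704 to 1168). In the other 68 cells these were at 1016, 859.5 and 7201 CPM. Ctss was close in both, at 3316 and 3586 CPM, and Ctsb was higher in the cells with C1qa, at 1629 against 971 CPM. These sets were formed after the levels had been seen, and 5 cells give only a rough value.

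**Figure D5:**
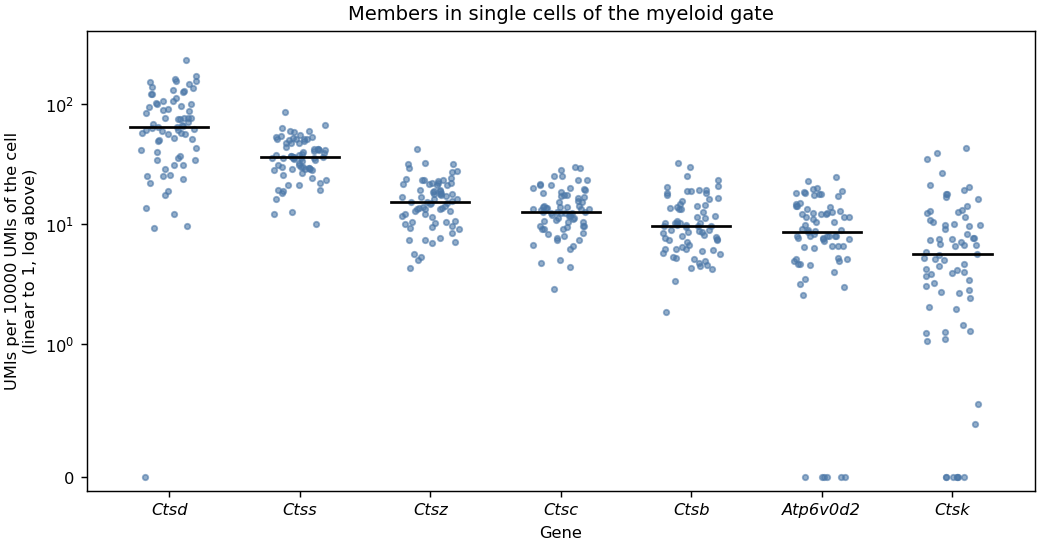
UMIs per 10000 of 7 members in each of the 73 cells of the myeloid gate, on an axis that is linear to 1 and logarithmic above, with a bar at the median. Ctsd has the highest median (63.7) and Ctss is above 9 in every cell, whereas Atp6v0d2 and Ctsk are at 0 in a few cells.

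Genes that work with these proteins were read from 6 further lists. Their counts are read against the shares over all genes, which were 30.3% higher and 8.75% lower in ATI, 33.3% and 8.53% in keratin-high, 31.7% and 26.5% in myeloid and 4.44% and 0.972% in Lyz2-reduced cells. Relative to the median gene these shares were 12.2% and 15.6% in ATI, 15.1% and 15.6% in keratin-high and 28.1% and 29.5% in myeloid cells. Among the 39 lysosomal hydrolase genes 32 were tested in ATI against ATII cells, with 16 higher and 0 lower, but 4 higher and 4 lower relative to the median gene. Asah1, the acid ceramidase, was at 60.7 CPM in the ATII and 132 CPM in the ATI gate, and Aga, which cleaves the sugar link of glycoproteins, at 18.3 and 38.2 CPM. In keratin-high cells 9 of 33 hydrolase genes were higher and 3 lower (Lipa, Gm2a and Napsa), near the shares over all genes, and 2 and 4 relative to the median gene. Napsa, an aspartic protease that processes surfactant protein and is itself an ATII marker, was at 959.8 against 2616 CPM. In myeloid cells 31 of 37 were higher and 4 lower, namely Gaa, Smpd1, Napsa and Cpq (30 and 5 relative to the median gene), or 26 and 4 of 32 without genes that had to be called. Psap, the saposin precursor, did not have to be called and was at 2868 against 72.6 CPM. Lyz2-reduced against Lyz2-high cells gave 0 of 30 in either direction.

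Of the 20 lysosomal membrane genes 16 were tested in ATI cells, with 4 higher (Tpcn1, Tpcn2, Laptm4a and Laptm4b) and 2 lower, near the shares over all genes, and 1 and 3 relative to the median gene. Lamp3 was lower by 3.16 on the log2 scale (793 to 88.8 CPM) and Npc2, a lysosomal cholesterol carrier, was at 7668 CPM in the ATII and 3251 CPM in the ATI gate. The same 2 were lower in keratin-high cells, with Mcoln1, Tpcn2 and Laptm4b the 3 of 16 higher (1 higher and 2 lower relative to the median gene). They were also lower in myeloid cells, with 11 of 18 higher (11 higher and 3 lower relative to it), or 10 of 17 without Laptm5, which had to be called, while 1 of 15 was higher in Lyz2-reduced than in Lyz2-high cells, the lysosomal channel gene Tpcn2 at 22.3 and 12.8 CPM. Of the V-ATPase genes outside the name rule and the assembly factors, 12 of 17 were tested in ATI cells, with 1 higher (Oxr1) and 2 lower (Ncoa7 and Tbc1d24). In keratin-high cells 1 was higher (Tmem199) and the same 2 lower, and relative to the median gene both gates had 0 higher and 2 lower. In myeloid cells 7 of 14 were higher and 5 lower (Tmem9, Dmxl1, Rogdi, Ncoa7 and Tbc1d24) on either scale, and between the Lyz2-split ATII cells 0 of 12 were called. In the myeloid gate Dmxl2, an assembly factor that had to be called, was at 118 against 0.66 CPM and Tcirg1 at 117 against 14.3 CPM.

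The list of cathepsin inhibitors was taken mostly from the cystatin and serpin families, and inhibition by each gene was not checked. It had few tested members and wide differences. Cst8, of the cystatin family, was at 69.2 CPM in Lyz2-high and 32.7 CPM in Lyz2-reduced cells. It was the only call among the 5 listed genes tested there, and was at 2.77 and 2.54 CPM in the ATI and keratin-high gates. Serpinb6a was at 109 CPM in the ATII, 249 CPM in the ATI and 454 CPM in the keratin-high gate, and Cstb, the cystatin that inhibits Ctsl and Ctsb, at 287 CPM in the ATII and 641 CPM in the keratin-high gate. In the ATI gate 2 of 5 listed genes were higher (Serpinb6a and Serpinb6b) and 1 lower (Cst8), and in the keratin-high gate Cstb was higher as well. In the myeloid gate 4 of 6 were higher (Cst3, Cstb, Serpinb1a and Serpinb6a) and 2 lower (Cst8 and Serpinb6b), where Serpinb1a was at 273 against 0.22 CPM. These counts were the same relative to the median gene, but each gene is a large share of so short a list, and Cst8 and Serpinb1a had to be called. Cstb and Ctsl were therefore both higher in keratin-high than in ATII cells.

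The MiT/TFE factors and their regulators gave 2 higher (Tfeb and Rraga) and 3 lower of 15 in ATI, 1 higher (Rraga) and 3 lower of 15 in keratin-high and 10 higher of 16 in myeloid cells, with Mitf, Flcn and Fnip2 lower in both epithelial comparisons. Relative to the median gene the counts were 0 higher and 3 lower in ATI, 1 and 4 in keratin-high and 10 and 0 in myeloid cells. Mitf in the epithelial comparisons and Tfec in the myeloid one had to be called. Mitf was the only call of 15 between the Lyz2-split ATII cells, lower in the Lyz2-reduced cells. Tfec, a family member of macrophages, was at 96.2 CPM in the myeloid and 0.02 CPM in the ATII gate. Of the 9 mannose 6-phosphate sorting genes, 1 was higher (Gga3) and 1 lower (Gga2) in ATI cells. In keratin-high cells 2 were higher (Igf2r and Nagpa) and 3 lower (Gnptab, Sort1 and Gga2), in myeloid cells 3 were higher (M6pr, Nagpa and Sort1) and 1 lower (Igf2r), and 0 were called between the Lyz2-split ATII cells. Relative to the median gene they were 0 and 2, 0 and 4, and 3 and 2, and the myeloid call of Igf2r was set by the minimum. Igf2r, the receptor that carries hydrolases to the lysosome, was at 37.1 CPM in the ATII, 55.0 CPM in the ATI, 58.5 CPM in the keratin-high and 3.76 CPM in the myeloid gate.

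The 5 genes with the TCACGTGA core shown above did not include any of the V-ATPase genes called lower in ATI cells. Their log2 ratios of ATI to ATII were -0.22 for Atp6v0d1, 0.51 for Atp6v1a, 0.55 for Atp6v0e, 0.62 for Ctsa and 0.70 for Ctsd, beside the all-gene median of 0.36. In the myeloid gate all 5 were higher than in the ATII gate, by log2 ratios of 0.62, 1.06, 1.79, 3.25 and 5.08 in the same order. With 5 genes this is a description of these genes and not of the motif.

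The main differences lie in named genes of known position. In GENCODE M21 (GRCm38) Atp6v1c2 spans chr12:17284721-17329359 on the minus strand and overlaps Pdia6 on the other strand, Atp6v1g3 spans chr1:138273738-138289462 on the plus strand, and Atp6v0a4 chr6:38048483-38124586 on the minus strand. Ctse lies at chr1:131638306-131675505, Ctsc at chr7:88278085-88310888 and Ctsl at chr13:64359337-64370890. Ctsk and Ctss are neighbours, at chr3:95499256-95509362 and chr3:95526786-95556403, both on the plus strand. Ctsk was at 533 CPM in the collagen-positive cells and both were high in the myeloid gate. Ctsd, Ctsl, Atp6v0a4 and Ctss each overlap a further annotated gene on their own strand, Gm49369, Gm49230, D630045J12Rik and Hmgb1-ps5, and reads in the overlap can be lost or shared in counting.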

How the data were processed

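Sorted neoplastic cells of 6 mice were profiled with 10x 3′ chemistry. Per the study's methods, the authors used Cell Ranger 3.0.2 for alignment (mm10) and UMI counting, and the annotation release is not given in the sources used here. The deposited values were raw counts, whole UMIs per gene and cell, which the authors had not normalized, in a pooled matrix. The mouse of each cell was not analysed here, so the 3 Restored and 3 NonRestored mice were not compared, the matrix was treated as 1 sample and no p-value was computed. The gates, members and gene lists were chosen with earlier results of these data known.

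Cells with at least 500 genes and at most 20% mitochondrial UMIs were gated. UMIs were summed over the cells of a gate and divided by the gate's total, giving CPM (per 1000000 UMIs), with 95% intervals that were exact Poisson for a level, exact conditional binomial for a ratio and Clopper-Pearson for a share. Intervals cover counting error only. A limit of 3 counts was used as the floor of a count of 0. A gene was called at a ratio of at least 1.5-fold if its mean over both gates was at least 5 CPM, and called again relative to the median gene. For the share of cells in which a gene was detected, cells were first thinned to 5000 UMIs. Members with at least 20 CPM in a gate are named with values, and of each further list up to 4 genes with the largest absolute log2 ratio among those with a mean of at least 20 CPM. Genes behind counts of 5 or fewer called by CPM are named as well, chosen after their values were seen. No doublet caller was run. Instead, leaving out the 6% of cells with the most UMIs was 1 of 12 other settings, and 2 more that leave out cells of the myeloid or ATII gate were added after seeing the data, as were the Sftpc bins and the split of the myeloid cells by Marco and C1qa. Gene positions came from GENCODE M21, which matched 44 of 44 members and 30934 of 31055 features, and promoters from RefSeq (GRCm38.p6). Scripts were tested on simulated data and used Python 3.11.15, numpy 2.4.6, scipy 1.17.1 and pandas 2.3.3.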

Additional observations from a re-analysis of the deposited data

How the results depend on the processing

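No paired analysis was possible because cells were not assigned to mice, and no replicate could be left out. Of 212 counts of called members recomputed under 14 alternatives, 192 stayed within 1.5 times the reported count and 20 did not. In ATI against ATII cells the V-ATPase genes higher went from 0 to 1 with every cell weighted the same, 3 with cells thinned to 5000 UMIs and 2 with no minimum level. The cathepsins higher there went from 5 to 3 over UMIs without surfactant, Lyz2 and mitochondrial genes, 2 relative to the median gene and 3 with a minimum of 20 CPM, and the cathepsins lower went from 1 to 2 under that denominator, relative to the median gene and with no minimum level. In keratin-high against ATII cells the V-ATPase genes higher went from 2 to 1 under the same denominator, 0 relative to the median gene and 1 at a keratin limit of 30, and the cathepsins lower went from 1 to 2 under that denominator and 3 with no minimum level. With no minimum level Lyz2-reduced against Lyz2-high cells gave 1 V-ATPase gene higher and 1 lower and 2 cathepsins higher and 1 lower in place of 0, and the myeloid comparison gave 5 V-ATPase genes lower in place of 3 and 2 cathepsins lower in place of 0. The alternatives on the median gene and on the minimum level change a count by their construction, and for the others the cause was not tested.

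Of 1258 ratios recomputed under the alternatives that can move them, 75 changed sign, 24 of them relative to the median gene and 15 over UMIs without surfactant, Lyz2 and mitochondrial genes. Of the 75, 9 had been past 1.5-fold as reported. Leaving these 9 aside, 917 ratios stayed within their counting interval and 332 did not. The log2 ratio of Ctss turned positive without cells holding a Ptprc or Tyrobp UMI and without cells of the myeloid gate, at 0.96 and 0.95 for ATI over ATII and 0.56 and 0.75 for keratin-high over ATII. That of Atp6v0d2 for Lyz2-reduced over Lyz2-high turned to 0.19 and 0.20. For myeloid over ATII, Ctse went to 0.18 with cells weighted the same and 1.84 after thinning, and Ctso to -0.51 after thinning. Of 112 shares of cells with a UMI, 102 moved without thinning. Depth limits the myeloid gate most, where 73 cells hold 1860440 UMIs and 3 UMIs stand for 1.61 CPM.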
